A study of Mus musculus with 4 samples.

Results

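The epidermal growth factor receptor (EGFR) family and its ligands were followed in MC38, a mouse colon carcinoma cell line kept in culture, through 10 genes chosen by name: the ligand genes Areg, Ereg, Hbegf, Tgfa, Epgn and Btc, the receptor genes Egfr, Erbb2 and Erbb3, and the inhibitor gene Errfi1. All 10 were found, each as 1 row, among the 36445 genes of the deposited table. The cells received either PBS or 5-fluorouracil (5-FU, a pyrimidine analogue that disturbs thymidylate, RNA and DNA synthesis) at 1 mM for 24 h. Each group held 2 libraries of polyadenylated RNA, both from the same line, and the labels do not say whether they came from separate cultures. The p-values below therefore measure only the spread between these libraries, which may be technical.

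EGFR ligands are made as membrane-anchored precursors and are released by metalloproteases of the ADAM family. Binding pairs the receptors, whose kinase activity signals through the RAS-ERK and PI3K-AKT cascades. ERBB2 has no known ligand and acts as a partner, ERBB3 has a weak kinase and binds neuregulins, and the protein of Errfi1 (also called MIG6) binds active receptors and blocks their kinases. In the intestinal epithelium this system drives stem cell proliferation and repair, and EGFR is a drug target in colorectal cancer.

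Values are FPKM (fragments per unit of transcript length and per unit of library size), which can be compared between genes as levels per length. They are shares of a library, so a change in RNA per cell cannot be seen, and fewer cells with a transcript cannot be told apart from less of it per cell. Depth, read off the steps of the FPKM values, was about 41.3 M and 41.6 M reads for PBS replicates 1 and 2, against 20.8 M and 20.6 M for 5-FU replicates 1 and 2. The PBS libraries lay farther apart, with a median absolute log2 difference of 0.271 over tested genes against 0.073 for the 5-FU pair. None of 13 epithelial marker genes reached 1 FPKM in any library: Epcam stood at 0 in either PBS library and reached 0.0235 and 0.0475 FPKM after 5-FU, and the highest of the list was Krt20 at 0.823 FPKM. Of 8 mesenchymal markers Vim was the highest, at 889.7 to 1069 FPKM. Fn1 followed with 389 and 588 FPKM in PBS and 227 and 218 FPKM in 5-FU. The lowest of that list, Col1a1 and Zeb1, lay between 0.796 and 1.48 FPKM. Among 9 leukocyte markers, Cd3e was listed at 0 in all 4 libraries and Ptprc stayed at or under 0.0342 FPKM, while Cd68 reached 6.29 to 19.3 and Lyz2 1.57 to 3.19 FPKM. The summed leukocyte list ran from 8.06 to 22.6 FPKM in PBS and from 19.4 to 20.97 in 5-FU, and its part in the results below was not tested.

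After 5-FU, 2 ligand transcripts rose, Ereg 2.35-fold and Hbegf 3.09-fold, and 2 receptor transcripts fell, Erbb2 3.05-fold and Erbb3 3.51-fold. Areg, Btc and Errfi1 did not pass the test, and Egfr, Epgn and Tgfa were too low to enter it. The test was limma on log2(FPKM + 1) over every gene that reached 1 FPKM in 2 or more libraries, which 7 of the 10 genes did. A gene was called when its two-sided p, adjusted by the Benjamini-Hochberg method, was below 0.05. Among all 11644 tested genes 22.1% were called higher and 31.2% lower, so calls were common and 2 higher and 2 lower of 7 is no more than a description of these genes. The 4 libraries separated by group in most genes as well: both 5-FU libraries lay above both PBS libraries in 35.9% of tested genes and below them in 45.1%. Of the 7 tested members 2 lay above, 3 below and 2 overlapped.

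**Figure D1:**
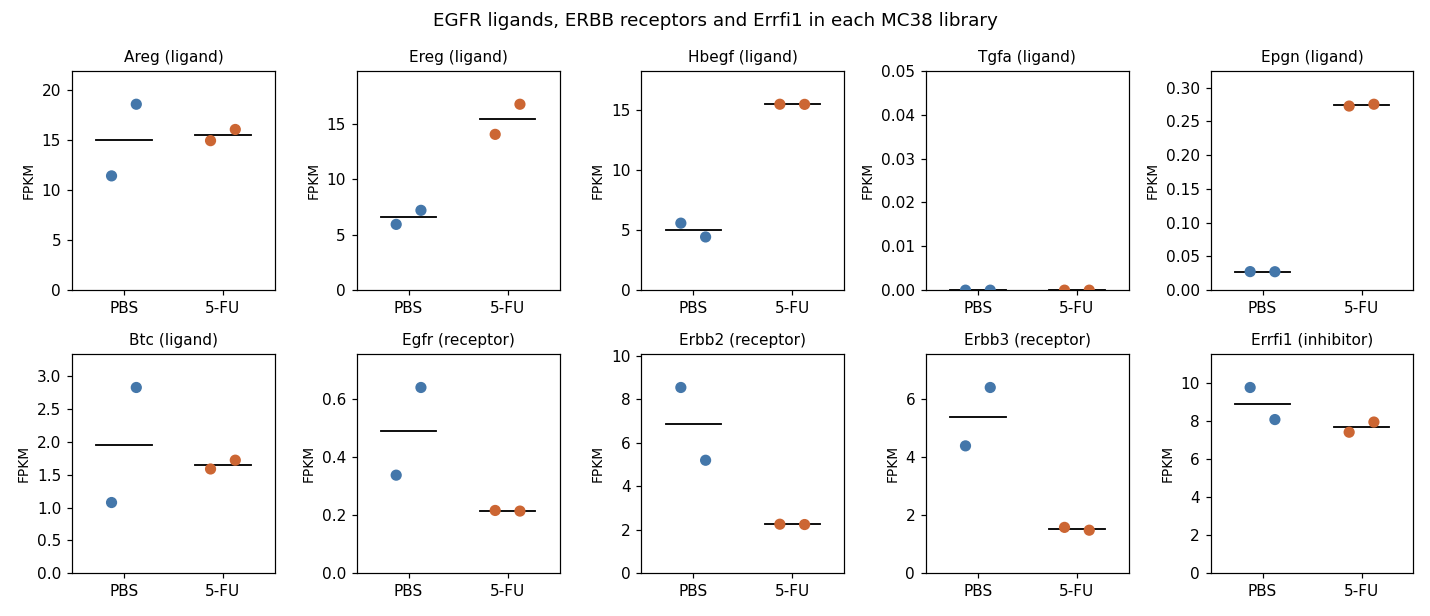
FPKM of each of the 10 genes in every library, on linear axes that start at 0; points are the 2 PBS (blue) and 2 5-FU (orange) libraries, replicate 1 left of replicate 2, and bars are group means. Ereg, Hbegf and Epgn lie higher in both 5-FU libraries, Egfr, Erbb2, Erbb3 and, by less, Errfi1 lie lower in both, Tgfa is listed at 0 throughout, and the wide PBS pair of Areg and Btc spans their 5-FU values.

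Among the 4 tested ligands, Hbegf, whose product is the heparin-binding member of the family and also the diphtheria toxin receptor in other species, had the largest log2 difference. It measured 5.59 and 4.44 FPKM in PBS replicates 1 and 2 and 15.5 in both 5-FU replicates. The groups did not overlap, and the 5-FU pair was nearly identical. Its PBS mean was 5.01 ± 0.814 FPKM and its 5-FU mean 15.5 ± 0.00723 FPKM (each ± is the SD of n = 2 libraries, also for later means), a log2 difference of 1.46 ± 0.149 SE with adjusted p = 0.00383. That difference exceeded those of 96.9% of tested genes. With 5-FU replicate 1 or 2 left out the difference was still 1.46, but the call was lost.

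Ereg encodes epiregulin, which binds EGFR and ERBB4. The gene lies on chromosome 5 at 91074622 to 91093646 (GRCm38, plus strand). It measured 5.94 and 7.20 FPKM in PBS and 14.1 and 16.8 FPKM in 5-FU, again without overlap. The means were 6.57 ± 0.897 and 15.4 ± 1.92 FPKM, and the log2 difference was 1.12 ± 0.161 SE (adjusted p = 0.00672), above that of 93.3% of tested genes. Leaving out 5-FU replicate 1 or 2 gave log2 differences of 1.24 and 1.00, and the call was lost.

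Areg, which encodes amphiregulin, a low-affinity EGFR ligand, was the most abundant ligand transcript in PBS. It measured 11.4 and 18.6 FPKM in PBS replicates 1 and 2 and 14.9 and 16.1 FPKM in 5-FU replicates 1 and 2. Both 5-FU values fell between the PBS values, so the groups overlapped completely. The log2 difference was 0.08, with a 95% confidence interval from -0.56 to 0.72 (adjusted p = 0.798), which leaves room for changes of up to about those bounds in either direction. The verdict turned on which PBS library was kept: Areg was lower by test without PBS replicate 1 (log2 difference -0.25, adjusted p = 0.0257) and higher without PBS replicate 2 (0.41, adjusted p = 0.00424), in a range of adjusted p up to 0.962.

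Btc encodes betacellulin, a ligand of EGFR and ERBB4, and was expressed at a low level. It measured 1.08 and 2.82 FPKM in PBS and 1.59 and 1.72 FPKM in 5-FU, so that the PBS libraries differed 2.62-fold from each other and enclosed the 5-FU pair. The log2 difference was -0.09 (95% confidence interval -0.92 to 0.74, adjusted p = 0.831), and it was 0.14 under quantile normalization. Without PBS replicate 1 the log2 difference of Btc was -0.53 and without PBS replicate 2 it was 0.35, again with the error from the 5-FU pair alone. Within the PBS pair, Areg, Btc and Ereg were higher in replicate 2 and Hbegf was higher in replicate 1.

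Epgn, which encodes epigen, was near the limit of detection. Its values were 0.0275 and 0.0273 FPKM in PBS and 0.273 and 0.276 FPKM in 5-FU, which corresponds to about 2.05 reads in each PBS library and 10.3 reads in each 5-FU library. Over both libraries of a group this is 4 against 20 reads, a ratio of 10.0 after scaling for depth. The exact 95% interval of the ratio ran from 3.35 to 40.3 and covers counting error only. In a limma fit with no filter on low values Epgn was called higher (adjusted p = 0.017). That p rests on read estimates that were the same within each group (SE 0.0225) and does not cover counting error. The log2 difference in that fit was only 0.31, because a pseudocount of 1 dwarfs such values. Even after 5-FU its level was 56.2-fold below that of Ereg, the neighbouring gene.

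Tgfa, which encodes transforming growth factor alpha, was listed at 0 in all 4 libraries. For its 6490 bases of annotated exons, 3 reads would be 0.0112 and 0.0111 FPKM in PBS replicates 1 and 2 and 0.0222 and 0.0224 FPKM in 5-FU replicates 1 and 2. A listed 0 therefore leaves room for a level up to about those values in each library, a limit that covers counting error only.

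In PBS the ligands ranked Areg, Ereg, Hbegf, Btc, Epgn and Tgfa by mean FPKM. The place of Epgn above Tgfa rests on about 2.05 reads in each PBS library. The PBS values of Ereg and Hbegf, neighbours in this order, did not overlap (5.94 to 7.20 against 4.44 to 5.59 FPKM). In 5-FU the 3 leading ligands stood at the same level, with means of 15.4, 15.5 and 15.5 FPKM for Ereg, Hbegf and Areg, and their order cannot be told from the spread of the libraries. Areg made up 47.5% and 56.2% of the summed FPKM of the 6 ligands in the PBS libraries and 32.2% and 31.9% in the 5-FU libraries. The share of Hbegf was 23.2% and 13.4% in PBS and 33.4% and 30.8% in 5-FU.

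Areg, Ereg, Epgn and Btc lie side by side on chromosome 5. From the start of Epgn (91027464) to the end of Btc (91402994) the cluster covers 375.5 kb, in the order Epgn, Ereg, Areg, Btc, with the first 3 on the plus strand and Btc on the minus strand. The gaps are 39.4 kb between Epgn and Ereg, 46.0 kb between Ereg and Areg, and 208.8 kb between Areg and Btc. Ereg rose, Epgn was higher in both 5-FU libraries at a few reads, and Areg and Btc overlapped between the groups. Whether the 4 genes differed in their change was not tested. Mthfd2l, a mitochondrial folate enzyme gene that ends 6.1 kb before Epgn, fell from 14.1 ± 0.326 to 8.46 ± 0.212 FPKM (log2 difference -0.68, adjusted p = 0.0103). On the other side, Parm1 was at 0 except in PBS replicate 2 (0.00474 FPKM).

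**Figure D2:**
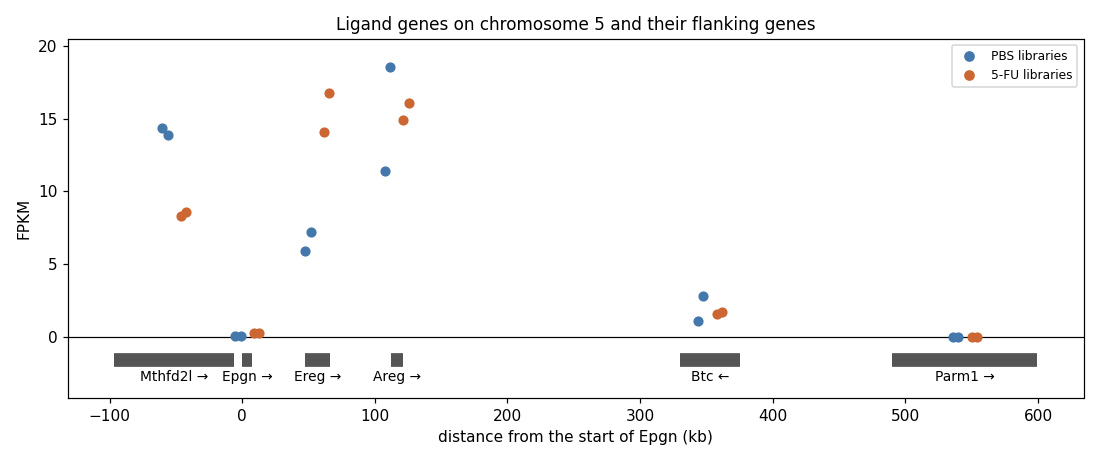
FPKM in the 2 PBS (blue) and 2 5-FU (orange) libraries of the 4 ligand genes of the chromosome 5 cluster and the protein-coding gene on either side, drawn above each gene's extent (grey bars, arrows give the strand) by distance from the start of Epgn in kb; points of a gene are spread sideways for legibility. Ereg rises from 5.94 and 7.20 to 14.1 and 16.8 FPKM, Epgn stays at or under 0.276 FPKM, Mthfd2l is lower in 5-FU, and the groups overlap in Areg and Btc.

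Of the receptors, Erbb3 and Erbb2 fell, and Egfr did not enter the test. Erbb3 (chromosome 10, 128567523 to 128589652, minus strand) measured 4.38 and 6.38 FPKM in PBS and 1.58 and 1.48 FPKM in 5-FU, without overlap. Its mean went from 5.38 ± 1.42 to 1.53 ± 0.0687 FPKM, a log2 difference of -1.32 ± 0.197 SE (adjusted p = 0.00736), and 8.8% of tested genes had a lower one. Without 5-FU replicate 1 or 2 the call was lost, with log2 differences of -1.34 and -1.29.

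Erbb2 (chromosome 11, 98412470 to 98437716, plus strand) measured 8.53 and 5.19 FPKM in PBS and 2.26 and 2.24 FPKM in 5-FU. Both 5-FU values were below both PBS values, although the PBS pair itself differed 1.64-fold. The means were 6.86 ± 2.36 and 2.25 ± 0.0105 FPKM, and the log2 difference was -1.24 ± 0.24 SE (adjusted p = 0.0141). The call was lost without 5-FU replicate 1 or 2 and when low values were not filtered (adjusted p = 0.058). Between the PBS libraries Erbb2 and Erbb3 ran in opposite directions, Erbb2 being higher in replicate 1 and Erbb3 in replicate 2.

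Egfr (chromosome 11, 16752203 to 16918158, plus strand), the receptor that all 6 ligands bind, was low throughout. It measured 0.337 and 0.639 FPKM in PBS and 0.216 and 0.214 FPKM in 5-FU, or 158, 301, 51 and 50 estimated reads over its 11326 bases of exons. Both 5-FU libraries were below both PBS libraries and the ratio of means was 2.27 (0.488 ± 0.213 against 0.215 ± 0.00152 FPKM), but the gene was under the filter of the test. With no filter it did not pass (adjusted p = 0.197; 0.199 with a pseudocount of 0.1, an alternative chosen after seeing the data). In PBS Egfr supplied 2.55% and 5.23% of the FPKM of the 3 receptors, and in 5-FU 5.33% and 5.43%. Erbb2 and Erbb3 did not hold a fixed order in PBS, where each led in 1 library, and in 5-FU Erbb2 was the higher in both.

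Long genes were lower more often in these data, and Egfr, at 166.0 kb, is the longest of the 10. Tested protein-coding genes spanning 50 to 200 kb, its class, had a median log2 difference of -0.47 and 47.5% of them were called lower. Erbb2 and Erbb3 span 25.2 and 22.1 kb, in the class of 10 to 50 kb that also holds Ereg, Hbegf, Btc and Errfi1. There the median was -0.06, with 22.4% called higher and 28.3% lower. The part of gene length in the values of the receptors was not tested. Exons shared with a gene on the opposite strand made up 3.4% of the exonic bases of Ereg, 1.8% of Tgfa and 0.2% of Erbb2, and the other 7 genes shared none.

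Taking the family as sums, the 6 ligands reached 24.0 and 33.1 FPKM in the PBS libraries and 46.4 and 50.3 FPKM in the 5-FU libraries. The 3 receptors summed to 13.2 and 12.2 FPKM in PBS and to 4.05 and 3.94 FPKM in 5-FU. The ratio of ligand to receptor transcripts was thus 1.81 and 2.71 in PBS and 11.4 and 12.8 in 5-FU. Most of the receptor sum was Erbb2 and Erbb3. Egfr, the receptor that all 6 ligands bind, supplied 2.55% to 5.43% of it, so the ratio is no measure of ligand per EGFR. These sums describe the 4 libraries and carry no test.

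**Figure D3:**
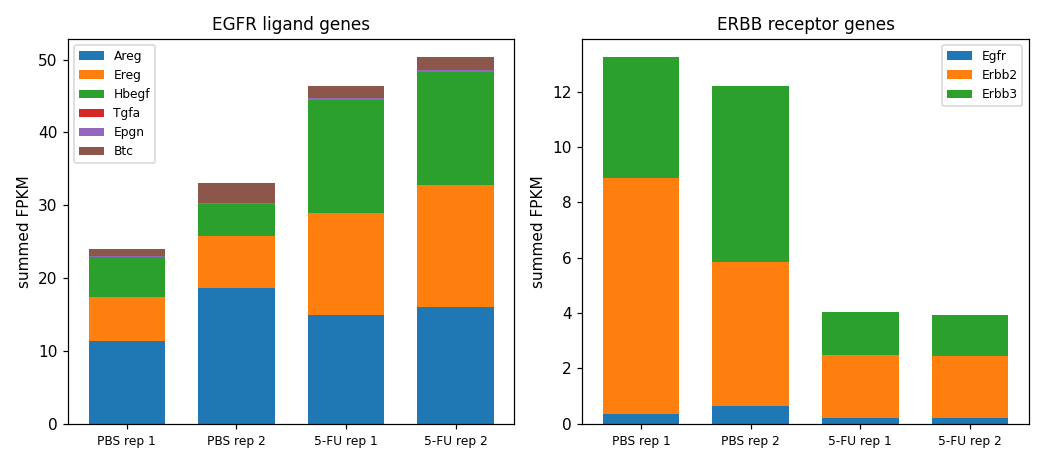
Summed FPKM of the 6 ligand genes (left) and the 3 receptor genes (right) in each library, stacked by gene, on axes that start at 0. The ligand stack is 24.0 to 33.1 FPKM in PBS and 46.4 to 50.3 in 5-FU, with the growth in Ereg and Hbegf, while the receptor stack is 12.2 to 13.2 FPKM in PBS and 3.94 to 4.05 in 5-FU.

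Errfi1 (chromosome 4, 150853919 to 150868892, plus strand), the feedback inhibitor, was among the steadier members. It measured 9.74 and 8.06 FPKM in PBS and 7.40 and 7.93 FPKM in 5-FU. The 5-FU values lay just below the PBS values, with a log2 difference of -0.19 (95% confidence interval -0.58 to 0.20, adjusted p = 0.327) that became 0.0796 under quantile normalization. Without PBS replicate 2 the log2 difference of Errfi1 was -0.31 and without PBS replicate 1 it was -0.0653.

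**Figure D4:**
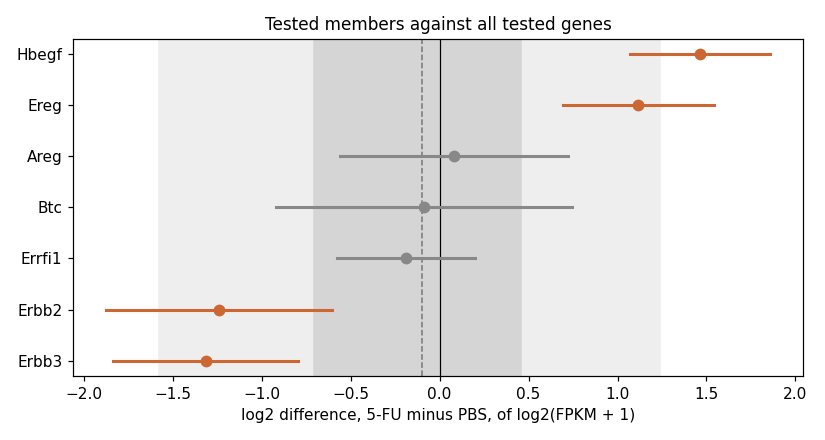
Log2 difference (5-FU minus PBS, on log2(FPKM + 1)) of the 7 tested members with 95% confidence intervals from limma; orange marks genes called at an adjusted p under 0.05, and the shaded bands hold the middle 50% (dark) and 90% (light) of all 11644 tested genes, with their median dashed. Hbegf at 1.46 lies above the 90% band, while Ereg at 1.12, Erbb2 at -1.24 and Erbb3 at -1.32 lie within it but outside the dark one.

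Sequences before the start site were examined for the 7 members that the RefSeq promoter table (GRCm38.p6) holds: Areg, Btc, Egfr, Epgn, Erbb2, Errfi1 (2 start sites) and Tgfa. The 250 bases before each start were searched on both strands for GGGCGG (the GC box), TATAAA (the TATA box), TGACGTCA (the cyclic AMP response element, CRE) and TGANTCA (the AP-1 site), which 32.7%, 12.4%, 1.5% and 6.7% of 32851 promoters hold. Shown here are the windows of Egfr and Erbb2, lower in both 5-FU libraries, and of Epgn, higher in both, with any match in capitals. Errfi1, also lower in both but by less, is shown further on. Each stretch starts at position -250 (the base before the start being -1) and stops where an annotated exon begins, so that it ends at -1 in Egfr, at -15 in Erbb2 and at -54 in Epgn.
Egfr, chr11:16751953-16752202, plus strand: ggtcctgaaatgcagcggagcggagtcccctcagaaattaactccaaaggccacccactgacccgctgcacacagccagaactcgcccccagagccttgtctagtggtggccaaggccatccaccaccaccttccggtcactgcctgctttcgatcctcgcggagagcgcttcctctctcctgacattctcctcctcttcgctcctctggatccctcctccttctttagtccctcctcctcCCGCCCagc
Erbb2, chr11:98412234-98412469, plus strand: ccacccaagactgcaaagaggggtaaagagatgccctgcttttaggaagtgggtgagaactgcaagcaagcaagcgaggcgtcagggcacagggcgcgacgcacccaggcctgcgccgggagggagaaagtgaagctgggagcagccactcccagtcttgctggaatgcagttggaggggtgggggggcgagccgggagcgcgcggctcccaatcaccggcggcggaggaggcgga
Epgn, chr5:91027267-91027463, plus strand: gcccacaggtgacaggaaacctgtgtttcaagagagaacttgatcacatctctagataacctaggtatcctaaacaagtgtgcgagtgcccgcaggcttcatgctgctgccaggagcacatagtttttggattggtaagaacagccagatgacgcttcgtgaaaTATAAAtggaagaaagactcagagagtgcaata
Over the whole window of 250 bases, Egfr and Erbb2 were 60.8% and 66.0% G or C, above the median of 52.4%, and held no TATAAA. This is not particular to them, because Tgfa (69.2%) and Btc (59.6%) had both traits. Areg (57.2%) and the downstream start site of Errfi1 (64.8%) were above the median too, and the upstream site of Errfi1 was at 38.0%. Egfr had 1 GGGCGG, read on the minus strand, at position -9, and Erbb2 had none of the 4 motifs. The whole window of Epgn was 46.8% G or C and had 1 TATAAA at position -86.

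A pair of expressed members that did not pass the test, Areg and Errfi1, shared the rarest motif. This was noticed after their values were seen, and their windows are shown for that reason.
Areg, chr5:91139449-91139598, plus strand: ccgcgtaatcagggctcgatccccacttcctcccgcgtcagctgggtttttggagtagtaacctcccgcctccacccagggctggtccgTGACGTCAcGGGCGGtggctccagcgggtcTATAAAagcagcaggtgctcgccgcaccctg
Errfi1, chr4:150854910-150855069, plus strand: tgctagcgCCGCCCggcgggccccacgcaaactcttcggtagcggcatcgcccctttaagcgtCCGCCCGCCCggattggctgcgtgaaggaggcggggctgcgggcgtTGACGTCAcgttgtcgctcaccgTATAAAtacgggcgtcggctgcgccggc
In Areg the capitals are a TGACGTCA at position -61, a GGGCGG at -52 and a TATAAA at -31. At the downstream start site of Errfi1 a TGACGTCA lies at position -51 and a TATAAA at -28, with 3 GGGCGG matches further upstream, 2 of which overlap. No window of the 7 genes held TGANTCA. These matches are letters in a window and no measure of binding.

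Other genes of the pathway were taken from lists of 73 genes, drawn up by role with earlier results of these data known. Of these 65 were tested, 9 rose, 26 fell and 30 did not pass, with a median log2 difference of -0.32 against -0.10 for all tested genes. The shares of 22.1% higher and 31.2% lower over all genes are the background for each count that follows. Without 5-FU replicate 1 or without 5-FU replicate 2 the calls were lost, save those of Adam10, Map2k1, Lrig1 and Socs5, and fewer of all tested genes passed. None of the 35 called genes changed direction under the alternatives.

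Further ligands and receptors of the family were low or absent. Nrg1, which encodes neuregulin 1, a ligand of ERBB3 and ERBB4, measured 1.37 and 1.41 FPKM in PBS and 1.48 and 1.29 FPKM in 5-FU and did not pass (adjusted p = 0.997). Nrg2 measured 0.84 and 1.59 FPKM in PBS and 0.421 and 0.378 FPKM in 5-FU and was not tested. Egf, the founding ligand, lay between 0.275 and 0.62 FPKM, Nrg4 between 0.0672 and 0.111, and Nrg3 and the receptor Erbb4 at or under 0.00711 and 0.00389 FPKM.

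Of 8 tested genes of ligand shedding and trafficking, 4 fell, 1 rose and 3 did not pass (median log2 difference -0.81). Adam17, the main sheddase of Areg, Ereg and Hbegf precursors, fell 2.32-fold, from 22.5 ± 1.99 to 9.68 ± 0.0861 FPKM (adjusted p = 0.0042). Adam10, which sheds betacellulin and EGF, fell 3.90-fold (30.7 ± 1.59 to 7.88 ± 0.11 FPKM), and Adam9 fell 3.10-fold. Frmd8, whose product stabilizes the sheddase complex at the cell surface, fell by 0.78 on the log2 scale, a call lost with no filter (adjusted p = 0.0846) and with quantile normalization (0.0898). Rhbdf1, which encodes the ADAM17 partner iRhom1, rose 1.88-fold, at 10.1 ± 2.28 FPKM before and 18.9 ± 0.298 FPKM after (adjusted p = 0.0164; unfiltered, 0.0541).

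In the adaptors and the RAS-ERK cascade 7 of 18 genes fell, 1 rose and 10 did not pass (median -0.19). Map2k1, which encodes the kinase MEK1, fell 4.50-fold, from 52.5 and 52.5 FPKM to 11.9 and 11.5 FPKM. Ksr1, a scaffold of the cascade, fell 4.50-fold as well (4.03 ± 0.177 to 0.897 ± 0.0269 FPKM), and Ptpn11, which encodes the phosphatase SHP2, fell 3.16-fold. Grb2, the adaptor that recruits SOS to the receptors, rose 1.35-fold, from 29.2 ± 2.32 to 39.4 ± 0.696 FPKM (adjusted p = 0.0335; 0.0521 with no filter and 0.0547 with quantile normalization).

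In the PI3K-AKT arm 4 of 8 genes fell and 4 did not pass (median -0.43). Pdpk1, whose kinase activates AKT, fell 4.87-fold, from 6.96 ± 0.731 to 1.43 ± 0.0258 FPKM, and the regulatory subunit gene Pik3r1 fell 3.41-fold. The catalytic subunit gene Pik3ca fell by 0.75 on the log2 scale (adjusted p = 0.018, with 0.0553 without a filter and 0.123 with quantile normalization).

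Receptor signalling is ended by endocytosis and by inhibitors. Of 19 tested genes of these kinds, 10 fell, 3 rose and 6 did not pass (median -0.46). Socs5, which promotes degradation of EGFR, had the largest fall of the list, 7.66-fold from 7.66 ± 0.133 to 1.00 ± 0.256 FPKM. Lrig1, a transmembrane protein gene whose product also lowers receptor levels, fell 3.94-fold (20.3 ± 0.616 to 5.16 ± 0.129 FPKM), while its paralog Lrig3 rose 2.13-fold, from 4.09 and 7.18 FPKM to a mean of 11.99 ± 0.0177 FPKM (adjusted p = 0.0287; unfiltered, 0.0919). Rasa1, a RAS inactivator, fell 3.59-fold. Hgs, which sorts internalized receptors to lysosomes, rose 2.19-fold, from 35.3 ± 5.11 to 77.4 ± 4.70 FPKM. Among the Sprouty inhibitors, Spry4 rose from 1.16 ± 0.295 to 3.20 ± 0.245 FPKM and Spry2 fell from 8.07 ± 1.03 to 2.99 ± 0.283 FPKM.

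Of 11 genes that ERK signalling is known to induce, 4 rose, 1 fell and 6 did not pass (median 0.02). Fosl1, an AP-1 subunit gene, measured 94.9 and 42.0 FPKM in PBS and 293.6 and 277.3 FPKM in 5-FU, a 4.17-fold rise (adjusted p = 0.0119; unfiltered, 0.0574). Of its exonic bases 57.2% are shared with Ccdc85b on the opposite strand, which measured 43.1 and 71.2 FPKM in PBS and 31.2 and 30.7 FPKM in 5-FU, so the assignment of these reads is uncertain. Plaur, the urokinase receptor gene, rose 3.68-fold, from 49.5 ± 15.4 to 182.2 ± 1.62 FPKM. The immediate early gene Egr1 rose from 1.06 and 0.167 FPKM to 3.91 and 3.22 FPKM (adjusted p = 0.0146; 0.0658 with no filter), and Dusp6, an ERK phosphatase gene, rose 2.28-fold. Etv5, an ETS factor gene, fell 2.61-fold (9.97 ± 0.335 to 3.82 ± 0.323 FPKM). Dusp4 differed 4.1-fold between the PBS libraries (27.4 and 112.4 FPKM) and did not pass, at 16.5 and 15.1 FPKM in 5-FU (adjusted p = 0.0815).

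**Figure D5:**
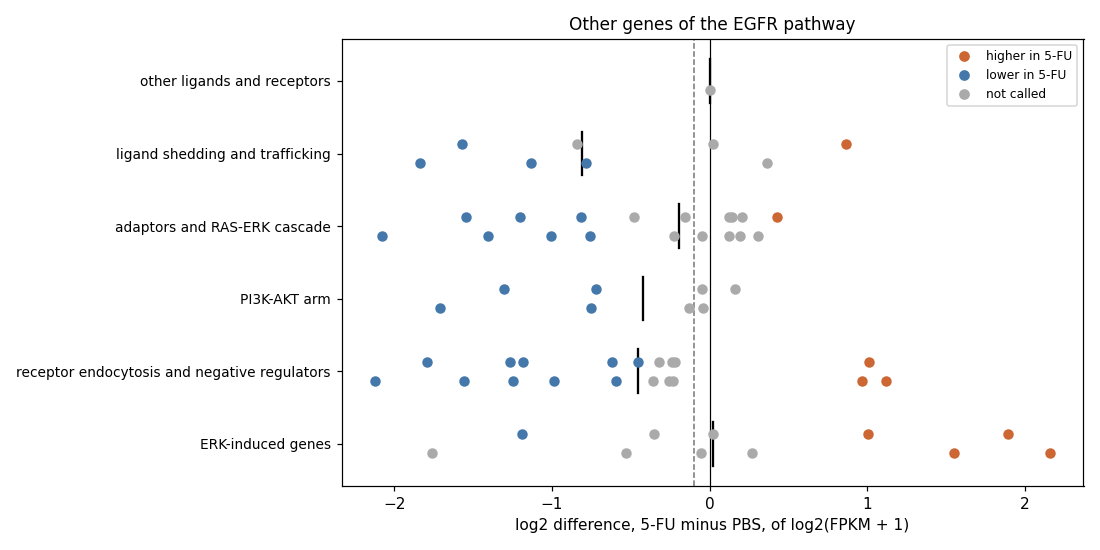
Log2 difference (5-FU minus PBS, on log2(FPKM + 1)) of the 65 tested pathway genes by list, 1 point per gene, orange for called higher, blue for called lower and grey for not called; black ticks are list medians and the dashed line is the median of all tested genes. Shedding, PI3K-AKT and negative regulator genes lie mostly left of 0, and the ERK-induced list runs from -1.76 (Dusp4, not called) to 2.16 (Fosl1).

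The genes whose 4 values ran most like those of Hbegf were Angptl4, Eloa and Nmi, at distances of 0.0434, 0.0531 and 0.0729 (Euclidean, over the 4 libraries, of log2(FPKM + 1) less the PBS mean). For Erbb3, the member with the largest fall, they were Tspan9, Rassf8 and Myo6, at 0.015, 0.0395 and 0.0495. These were the nearest 3 of 10087 protein-coding genes in each case, and 4 libraries in 2 groups give such a ranking little to rest on. The distance does not compare levels. Angptl4 went from 0.186 ± 0.152 to 2.25 ± 0.0953 FPKM, where Hbegf went from 5.01 to 15.5 FPKM. On log2(FPKM + 1) the change of so low a gene is understated, so its fold was larger than that of Hbegf.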

How the data were processed

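RNA from MC38 cells given PBS or 5-FU was sequenced after selection of polyadenylated RNA, 2 libraries per group, per the labels' protocols. The authors deposited FPKM values per gene and library. STAR 2.4.1a, Picard 2.9.0 and GRCm38 appear in the submitters' processing notes without roles. The counting step, its annotation and its strand setting have no entry there or in the labels used here. GENCODE M21 (GRCm38) held 36295 of 36445 gene IDs and supplied positions and exonic lengths.

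Depth was estimated from the commonest smallest step of FPKM times exonic length. Among values under 100 reads, 63.1% to 65.1% per library lay within 0.02 of a whole read, so no count test was run. The interval given for Epgn came from its rounded read estimates, pooled over the 2 libraries of a group, and is descriptive. The 5-FU pair differed beyond counting error (mean chi-square per gene of 1.63 for genes of 20 to 200 reads, and 13.8 for the PBS pair) and was counted as 2 samples. This rests on estimated reads and does not tell separate cultures from technical repeats.

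The fit was made with limma 3.58.1 in R 4.3.3 (lmFit, eBayes with trend) on log2(FPKM + 1), over genes reaching 1 FPKM in 2 or more libraries. The procedure was also run on simulated data in which both groups had the same spread. That run does not cover these data, where the PBS pair was wider than the 5-FU pair. Folds are ratios of mean FPKM, and log2 differences understate changes of low genes. An exact permutation test of 2 against 2 libraries cannot go below p = 0.333 and was not run. Members, lists and tests were chosen with earlier results of these data known. From each pathway list up to 3 called genes per direction were named by size, and Frmd8, Spry2, Dusp4 and Dusp6 were named after their values were seen. Some listed genes are not reported here by name. Varied were pseudocounts (0.1, 0.5), filters (none, mean of at least 5 FPKM), median-ratio and quantile scaling, eBayes without trend, the replicate number as a block and each library left out. No filter with a pseudocount of 0.1 was added after seeing the data.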

Additional observations from a re-analysis of the deposited data

How the results depend on the processing

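All 4 member calls kept their direction under the 13 alternatives, save where a filter left a gene untested. The call of Erbb2 was lost with no filter on low values (log2 difference -1.24, adjusted p = 0.058). With a mean of at least 5 FPKM, Btc, Erbb2 and Erbb3 were not tested. The count of members lower, 2 in the report, was 1 with no filter. Under the filter on mean FPKM it was 0, which was fixed in advance, because that filter removed Erbb2 and Erbb3. Of the pathway genes, 4 in place of 9 were higher with no filter, and again 4 with no filter and a pseudocount of 0.1. Over all genes, 2368 of 23640 were called higher and 2836 lower with no filter. In the report these were 2578 and 3628 of 11644, so calls were rarer over all genes too. Quantile normalization moved the median log2 difference of all genes from -0.10 to 0.02 and turned Btc to 0.14 and Errfi1 to 0.0796, neither called.

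When libraries were left out in turn, the group reduced to 1 library took its error from the other pair. Members higher then numbered 0 to 4 and lower 0 to 4, and pathway genes higher 0 to 15 and lower 4 to 36. The counts of 0 came without either 5-FU library, where fewer genes passed overall (496 and 592 against 6206) and an unadjusted p under 0.05 still gave 2 members higher and 2 lower. Log2 differences ranged from -0.25 to 0.41 for Areg, 1.00 to 1.24 for Ereg, 1.32 to 1.60 for Hbegf, -0.53 to 0.35 for Btc, -1.55 to -0.93 for Erbb2, -1.54 to -1.09 for Erbb3 and -0.31 to -0.0653 for Errfi1.

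The deviations of same-numbered libraries from their group means had r = -0.01 across genes. This does not decide whether the numbers pair the libraries, because the 5-FU pair differed so little (median absolute log2 difference of 0.073). With the replicate block the members stayed at 2 higher and 2 lower, and the pathway genes came to 8 higher and 27 lower, with Grb2 (adjusted p = 0.0649) and Cbl (0.0807) lost. Depth limits Tgfa and Epgn, at 0 and a few reads, and PBS libraries had 2.0 times the reads of 5-FU libraries.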
